A study of Homo sapiens with 18 samples.

Results

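Bins carrying both repressive histone marks, H3K9me3 and H3K27me3, were followed in U937 cells, an established line of human acute myeloid leukaemia, after loss of the SUV39H enzymes. The members were chosen on the sgControl libraries. Chromosomes 1 to 22 of hg38 were cut into 287283 bins of 10 kb. A bin counted as marked in a library when at least 50% of it lay inside domains called with epic2, which joins enriched windows into broad domains. The 51095 bins marked in both H3K9me3 and both H3K27me3 sgControl libraries, called dual bins below, made up 17.8% of all bins and 510.95 Mb. The genotypes were DKO, which lacks SUV39H1 and SUV39H2, SKO, which lacks SUV39H1 alone, and sgControl, which received a control guide. Each mark was profiled by chromatin immunoprecipitation and sequencing (ChIP-seq) in 2 libraries per genotype. For SETDB1, another H3K9 methyltransferase, there were 2 libraries from wild-type (WT) cells. The sources used here say neither if a knockout line was 1 clone or a pool, nor if the replicates were grown apart, and p-values then measure only the spread between libraries, which may be technical.

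H3K9me3 is bound by HP1 proteins and is the main mark of constitutive heterochromatin. SUV39H1 and SUV39H2 set it over repeats and other gene-poor chromatin, and SETDB1 sets it at retrotransposons and zinc finger genes, where KRAB zinc finger proteins and TRIM28 recruit it. H3K27me3 is set by EZH1 and EZH2 within Polycomb repressive complex 2 and covers developmental genes that are silent in a given cell type. Both marks are usually described as occupying different chromatin. A bulk library pools many cells and both alleles, so a bin holding both marks cannot be told apart from a bin holding 1 mark in some cells or on 1 allele and the other mark elsewhere. Likewise, fewer marked cells and less of the mark per cell cannot be told apart.

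As examples of genes whose bodies lie mostly in dual bins, the 250 bases upstream of 1 start site are given for the longest gene of each outcome described below that has an entry in the table (RefSeq, GRCh38.p14). Each is written 5′ to 3′ on the gene's strand, and capitals mark CG dinucleotides. ROBO2 (chr3:76310630-76310879, plus strand) kept only H3K27me3, NEK10 (chr3:27216524-27216773, minus strand) kept only H3K9me3, ADAMTS2 (chr5:179345462-179345711, minus strand) kept neither, and DAB1 (chr1:57423113-57423362, minus strand) kept both.
ROBO2: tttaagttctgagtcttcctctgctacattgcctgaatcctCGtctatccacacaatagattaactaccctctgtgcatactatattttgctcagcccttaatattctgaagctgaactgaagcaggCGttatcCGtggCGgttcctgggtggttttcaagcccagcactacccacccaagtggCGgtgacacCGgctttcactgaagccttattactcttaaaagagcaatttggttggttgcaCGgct
NEK10: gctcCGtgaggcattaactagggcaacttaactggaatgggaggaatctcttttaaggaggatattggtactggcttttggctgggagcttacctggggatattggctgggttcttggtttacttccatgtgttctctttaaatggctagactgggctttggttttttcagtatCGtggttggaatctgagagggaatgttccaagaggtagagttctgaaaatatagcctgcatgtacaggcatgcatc
ADAMTS2: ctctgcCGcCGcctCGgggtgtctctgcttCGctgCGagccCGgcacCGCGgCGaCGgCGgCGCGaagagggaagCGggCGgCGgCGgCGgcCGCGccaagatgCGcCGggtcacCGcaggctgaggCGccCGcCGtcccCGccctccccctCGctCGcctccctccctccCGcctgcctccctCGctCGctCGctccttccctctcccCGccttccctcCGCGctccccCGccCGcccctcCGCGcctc
DAB1: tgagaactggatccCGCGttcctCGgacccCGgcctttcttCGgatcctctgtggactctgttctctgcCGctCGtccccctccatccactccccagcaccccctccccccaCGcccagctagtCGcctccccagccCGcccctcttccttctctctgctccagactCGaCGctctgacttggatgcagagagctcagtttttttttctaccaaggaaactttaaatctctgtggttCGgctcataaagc
The ROBO2 stretch holds 7 CG dinucleotides and the NEK10 stretch 2, while the DAB1 stretch holds 13 and that of ADAMTS2 holds 40. The start sites of NEK10 and DAB1 lay in dual bins themselves. That of ADAMTS2 lay in a bin with neither mark in sgControl, and that of ROBO2 in a bin marked in only 1 sgControl library of a mark. The start sites shown for ROBO2, NEK10 and DAB1 lie inside the gene bodies used here and not at their 5′ ends. Other start sites of these genes are not shown. CG dinucleotides, which read the same on both strands, were then counted in the 300-base windows from 250 bases before to 50 bases after the start. The 1109 windows in dual bins had a median of 7, against 22 over all 15101 windows, and at least 15 were found in 39.2% of the dual windows and 64.6% of all windows. The median was 10 in bins with H3K27me3 alone and 16 in bins with H3K9me3 alone.

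In sgControl the overlap of the marks was broad. Dual bins were 58.3% of the 87680 bins marked with H3K9me3 in both sgControl libraries and 51.3% of the 99536 bins marked with H3K27me3. For comparison, 34591 bins carried H3K9me3 in both sgControl libraries and H3K27me3 in neither (H3K9me3 alone), 32328 the reverse (H3K27me3 alone) and 129609 no mark. Most members were clear cases, since 35027 dual bins (68.6%) lay wholly inside domains in all 4 sgControl libraries. At the threshold, 2968 members had a lowest library between 50% and 60%, and 2758 bins just outside had one between 40% and 50%. H3K9me3 was marked in 49.5% and 47.4% of the bins just inside in DKO and 41.1% and 40.8% in SKO. Just outside, the shares were 42.4% and 43.4% in DKO and 35% and 34.4% in SKO. Reads inside domains numbered 16.1 to 23.3 M (mega) per H3K9me3 library and 45.5 to 67.6 M per H3K27me3 library. H3K9me3 lists covered 772 and 767 Mb in DKO and 737 and 739 Mb in SKO, against 1028 and 997 Mb in sgControl. H3K27me3 lists went the other way, at 1148 and 1124 Mb in DKO and 1142 and 1133 Mb in SKO, against 1022 and 1027 Mb in sgControl. The spike-in factor is not in these lists, so they show where domains were called and not the amount of a mark.

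Dual bins lost H3K9me3 far more often than H3K27me3. H3K9me3 was marked in 67.1% and 65.1% of them in the DKO libraries and in 57.1% and 56.4% in the SKO libraries, against 100% in sgControl by construction. H3K27me3 was marked in 94.3% and 93.8% in DKO and in 94.9% and 94.7% in SKO. A mark was called lost from a bin when neither library of the knockout was marked. H3K9me3 was lost from 13306 dual bins (26.0%) in DKO, where 28.1% of all bins with H3K9me3 in sgControl lost it. In SKO it was lost from 18239 (35.7%), where 31.2% of all such bins lost it. H3K27me3 was lost from 2468 dual bins (4.83%) in DKO against 7.49% of all bins with H3K27me3 in sgControl, and from 2202 (4.31%) in SKO against 7.04%. With the lists of each mark reduced to the same covered length by score, the dual bins themselves came to 380.85 Mb, against 510.95 Mb as deposited. Of these, 80.11 Mb lost H3K9me3 in DKO and 106.92 Mb in SKO, against 133.06 Mb in DKO and 182.39 Mb in SKO as deposited. H3K27me3 was lost from 24.58 Mb of the smaller set in DKO and 22.6 Mb in SKO, against 24.68 Mb and 22.02 Mb as deposited. H3K9me3 was then marked in 72.6% and 71.1% of the dual bins in DKO and 65.0% and 64.2% in SKO. These shares describe the members, since the sgControl libraries chose them.

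The H3K9me3 share of dual bins lay above that of bins with H3K9me3 alone in DKO and below it in SKO. In DKO, H3K9me3 was marked in 66.1% ± 1.41 of dual bins and 61% ± 0.401 of bins with H3K9me3 alone (SD, n = 2 libraries). In SKO it was marked in 56.8% ± 0.451 of dual bins and 68.4% ± 0.0531 of bins with H3K9me3 alone. The gap between dual and H3K9me3-alone bins was 6.42 and 3.86 points in the DKO libraries and -11.3 and -12.0 points in the SKO libraries, so DKO and SKO libraries did not overlap. With the upper 50% of domains by score, the gap was 2.13 and -0.284 points in the DKO libraries and -16.8 and -16.7 points in the SKO libraries, so the second DKO library no longer lay above 0. By chromosome, both DKO libraries lay above 0 on 16 of 21 chromosomes and below on 5, and both SKO libraries lay above on 2 and below on 19. The gaps differed by 16.8 points between DKO and SKO, with an exact two-sided permutation p of 0.33, the smallest that 2 libraries against 2 allow. This contrast was not planned beforehand. The planned exact two-sided sign test of the gap over the 4 knockout libraries gave a mean of -3.26 points and p = 0.5. H3K9me3 was also present in a few bins that had H3K27me3 alone in sgControl, 11.7% ± 0.256 of them in DKO and 5.5% ± 0.162 in SKO (SD, n = 2). For H3K27me3 the dual bins stood above the bins with H3K27me3 alone in every knockout library, by 10.6 and 12.5 points in DKO and 11 and 12.1 points in SKO. The exact two-sided sign permutation of the mean over these 4 libraries gave p = 0.13, its smallest value. It treats the libraries of both knockouts as replicates of each other. The dual bins also lay in wider H3K27me3 domains in sgControl, with medians of 436 and 465 kb against 134 and 145 kb for H3K27me3 alone. The part of domain width in this difference was not tested.

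**Figure D1:**
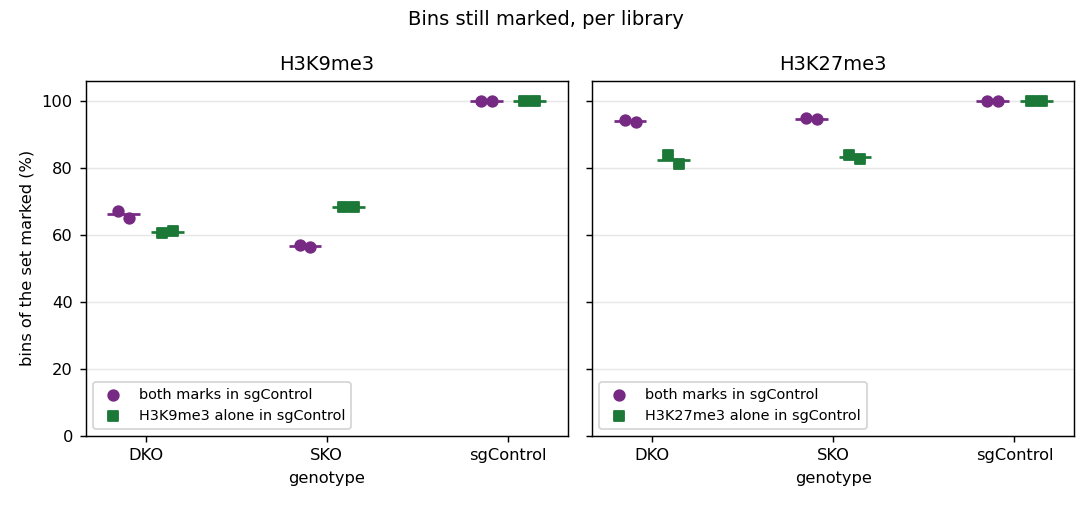
Percentage of bins marked (y axis, from 0) in each library of DKO, SKO and sgControl for H3K9me3 (left) and H3K27me3 (right). Circles are bins with both marks in sgControl, squares are bins with the plotted mark alone, and bars are means of 2 libraries. H3K9me3 dual bins sit above H3K9me3-alone bins in DKO and below them in SKO, while H3K27me3 dual bins sit above in both.

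The dual bins were then sorted by outcome in each knockout. Both marks were kept, meaning marked in both libraries, in 28236 dual bins (55.3%) in DKO and 23397 (45.8%) in SKO. H3K27me3 alone was kept in 11824 (23.1%) in DKO and 17241 (33.7%) in SKO. H3K9me3 alone was kept in 1162 (2.27%) in DKO and 1302 (2.55%) in SKO, and both marks were lost from 914 (1.79%) in DKO and 613 (1.2%) in SKO. In the rest, the 2 libraries of a mark disagreed. In all, 20806 dual bins (40.7%) were marked in all 8 knockout libraries. The joint loss of both marks was counted over bins, with no test. In DKO, H3K27me3 was lost from 6.87% of dual bins that lost H3K9me3 and 3.9% of those that kept it, and in SKO from 3.36% of those that lost H3K9me3 and 5.18% of those that kept it. Without chromosome 7 the shares were 5.45% and 3.79% in DKO and 3.41% and 5.24% in SKO, in the same order. Of the 17241 bins with H3K27me3 only in SKO, 9917 were in the same state in DKO and 2776 (16.1%) carried both marks there.

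**Figure D2:**
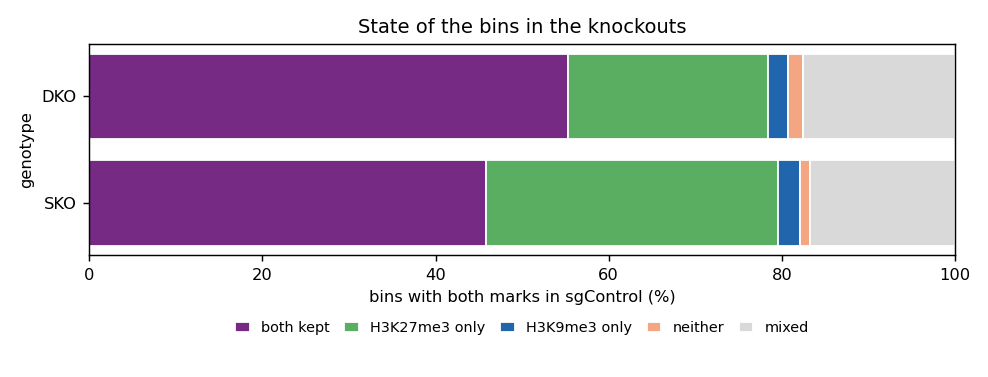
Share of the 51095 dual bins (x axis, percent) in each state in DKO (top) and SKO (bottom). Mixed bins are those where 2 libraries of a mark disagreed. Both marks were kept in 55.3% in DKO and 45.8% in SKO, and H3K27me3 only in 23.1% in DKO and 33.7% in SKO.

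The contrast of DKO with SKO is one that the choice of members, made on sgControl alone, did not use. H3K9me3 was marked in both DKO and neither SKO library in 2830 dual bins (5.54%), against 2.19% of all bins, and in both SKO and neither DKO library in 870 (1.7%), against 1.95%. Outside chromosome 7, which is described below, the counts were 2829 (6%, against 2.32% of all bins there) and 226 (0.479%, against 1.3%). Over all chromosomes, bins with H3K9me3 alone went the other way, with 515 (1.49%) in DKO only and 1987 (5.74%) in SKO only. These counts include chromosome 7. Outside it, H3K9me3 was marked in a mean of 63.4% of the bins with H3K9me3 alone in DKO and 68.4% in SKO. A limma fit on the percentage of each bin inside domains (6 libraries, Benjamini-Hochberg adjusted p under 0.05 over all bins tested) called 1927 of 37837 dual bins (5.09%) higher in DKO than SKO and 625 (1.65%) lower, against 2.62% and 2.58% of all bins tested. The sgControl libraries that chose the members also entered the spread and the filter of the fit, and some dual bins passed the filter only through them. With the SKO and DKO libraries only, the fit called 2113 dual bins, against 2552. With only 2 libraries a group and bin values near 0% or 100%, the fit called more unchanged bins on simulated data than its nominal rate, so these counts describe the lists. Without 1 of the DKO or SKO libraries, whichever was left out, the fit called 5485 to 6495 dual bins, and bins marked in 1 knockout only summed to 65.33 to 68.5 Mb against 37 Mb with all libraries.

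H3K27me3 differed in few dual bins. It was marked in both DKO and neither SKO library in 241 dual bins (0.472%, against 0.753% of all bins) and in both SKO and neither DKO library in 464 (0.908%, against 0.764%). Outside chromosome 7 the counts were 241 (0.511%, against 0.795%) and 233 (0.494%, against 0.52%). The limma fit called 266 of 9384 dual bins (2.83%) higher in DKO and 538 (5.73%) lower, against 2.8% and 2.85% of all bins tested. The 804 calls became 518 with the SKO and DKO libraries only, 516 without chromosome 7 and 1597 to 2151 without any 1 DKO or SKO library. Bins marked in 1 knockout only summed to 7.05 Mb, against 11.95 Mb without the first DKO library, 11.09 Mb without the second and 11.11 Mb without the first SKO library.

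Chromosomes differed widely. Dual bins were 40.2% of chromosome 8, 39.1% of chromosome 18 and 33.6% of chromosome 13, but only 2.93% of chromosome 17, and chromosome 22 had 2. Over the 21 chromosomes with at least 50 dual bins, H3K9me3 shares in both DKO libraries lay above both SKO libraries on 20. On chromosome 7 they lay below, at 27.4% and 26.5% in DKO and 56.2% and 55.5% in SKO. H3K27me3 was also lower there, at 85.6% and 84.4% in DKO and 95.3% and 95.2% in SKO. The median read density of dual bins on chromosome 7, relative to the mean of the library's domains, was 0.731 for H3K9me3 and 0.829 for H3K27me3 in DKO, against 0.784 and 1.10 in SKO. Bins with 1 mark alone were lower there too. H3K9me3-alone bins averaged 32.1% in DKO and 69.2% in SKO, and H3K27me3-alone bins 75.8% in DKO and 89.2% in SKO. The inputs were not analysed here, and the part of read density or chromosome copy number in these calls was not tested. In bins with H3K9me3 alone, both DKO libraries lay below both SKO libraries on 19 of the 21 chromosomes. H3K9me3 was kept most in dual bins of chromosomes 15, 19 and 20, with means of 96.6%, 96.5% and 96.0% in DKO and 91.4%, 93.5% and 86.7% in SKO. Chromosome 18 had the lowest SKO share of the 21, with means of 45.1% in DKO and 32.6% in SKO.

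**Figure D3:**
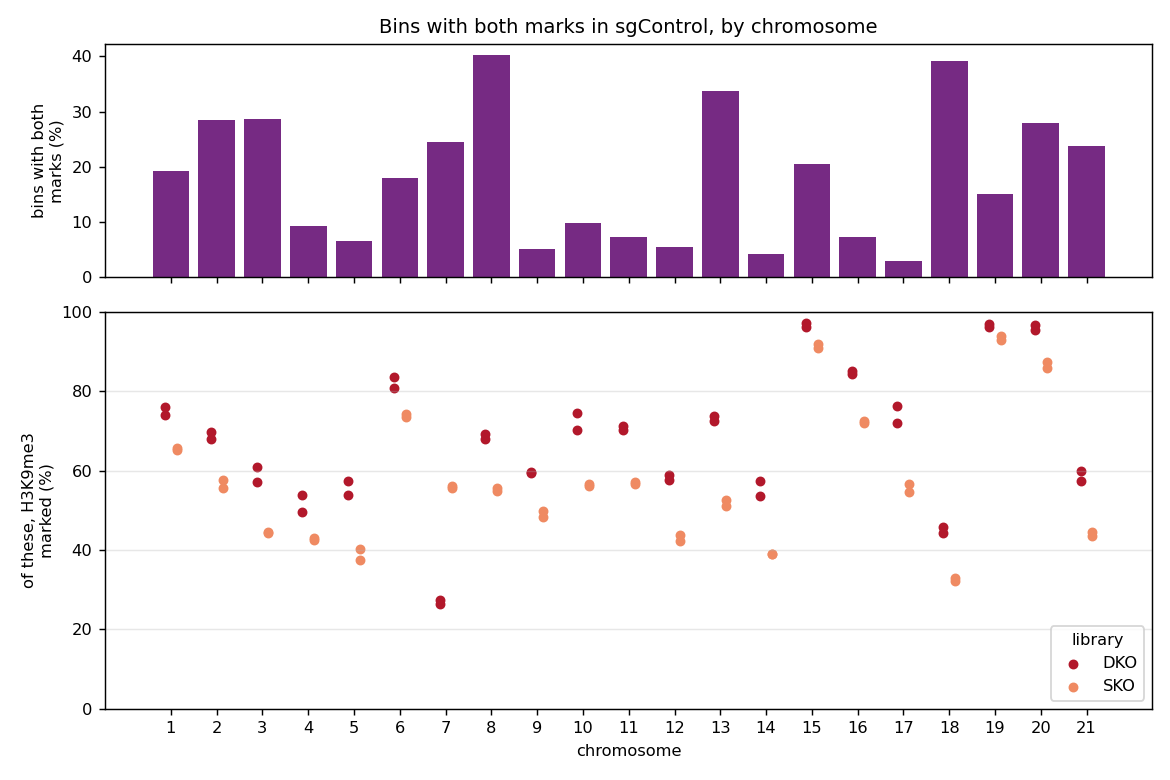
Top, bins of each chromosome that carried both marks in sgControl (y axis, percent from 0). Bottom, share of those bins marked with H3K9me3 in each DKO and SKO library (y axis, percent), for the 21 chromosomes with at least 50 such bins. DKO points lie above SKO points on every chromosome shown except chromosome 7.

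Dual bins were grouped in stretches along the chromosomes. There were 8291 unbroken stretches with a median of 30 kb, and 533 of them ran over 20 bins. H3K9me3 was marked in a larger share of the bins in long stretches. It was found in 48.7% ± 2.51 of bins that stood alone in DKO and 40.8% ± 1.44 in SKO, and in 78.7% ± 1.23 in DKO and 68.8% ± 0.151 in SKO of the 20129 bins in stretches over 20 bins (SD, n = 2). The longest stretch, 1630 kb at chr13:73650001-75280000, contains KLF12, which encodes a zinc finger transcriptional repressor. H3K9me3 domains covered 95.5% and 96.3% of it in DKO and 88.8% and 89.5% in SKO, against 98.5% and 98.2% in sgControl, and H3K27me3 covered at least 98.8% of it in each library.

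The outcomes also formed blocks of their own. In the longest block with both marks kept, 770 kb at chr6:39870001-40640000 over DAAM2, MOCS1 and LRFN2, both marks covered 100% in all 8 knockout libraries. DAAM2 encodes a formin of Wnt signalling, MOCS1 an enzyme of molybdenum cofactor synthesis and LRFN2 a synaptic adhesion protein. In the longest block with H3K27me3 only, 310 kb at chr7:19280001-19590000, H3K9me3 covered 0% in DKO and SKO, against 100% and 98.7% in sgControl, while H3K27me3 covered 96.6% and 90.7% in DKO and 98.7% in both SKO libraries. The third such block, 260 kb at chr18:31250001-31510000, holds DSG1, DSG4 and DSG3 and reaches into DSG2, genes of the desmogleins that form desmosomes in epithelia. There H3K9me3 covered 0% in DKO and SKO, against 89.1% and 93.1% in sgControl, and H3K27me3 covered 95.7% to 98.2% in the knockouts. The whole body of DSG2, most of which lies outside the block, had 70.8% and 61.4% H3K9me3 coverage in DKO and 0% in SKO. The longest block with H3K9me3 only was 200 kb at chr18:45430001-45630000 in SLC14A2, a urea transporter gene, where H3K27me3 covered at most 0.2% in the knockouts, against 95.4% and 100% in sgControl. The longest with neither mark was 70 kb at chr3:54980001-55050000 in CACNA2D3, a calcium channel subunit gene, at 0% in all 8 knockout libraries. The longest block with H3K9me3 in DKO and not SKO was 100 kb in CNTN4, which encodes an axonal adhesion protein, at 78.8% and 89.6% in DKO and 0% and 1.2% in SKO.

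**Figure D4:**
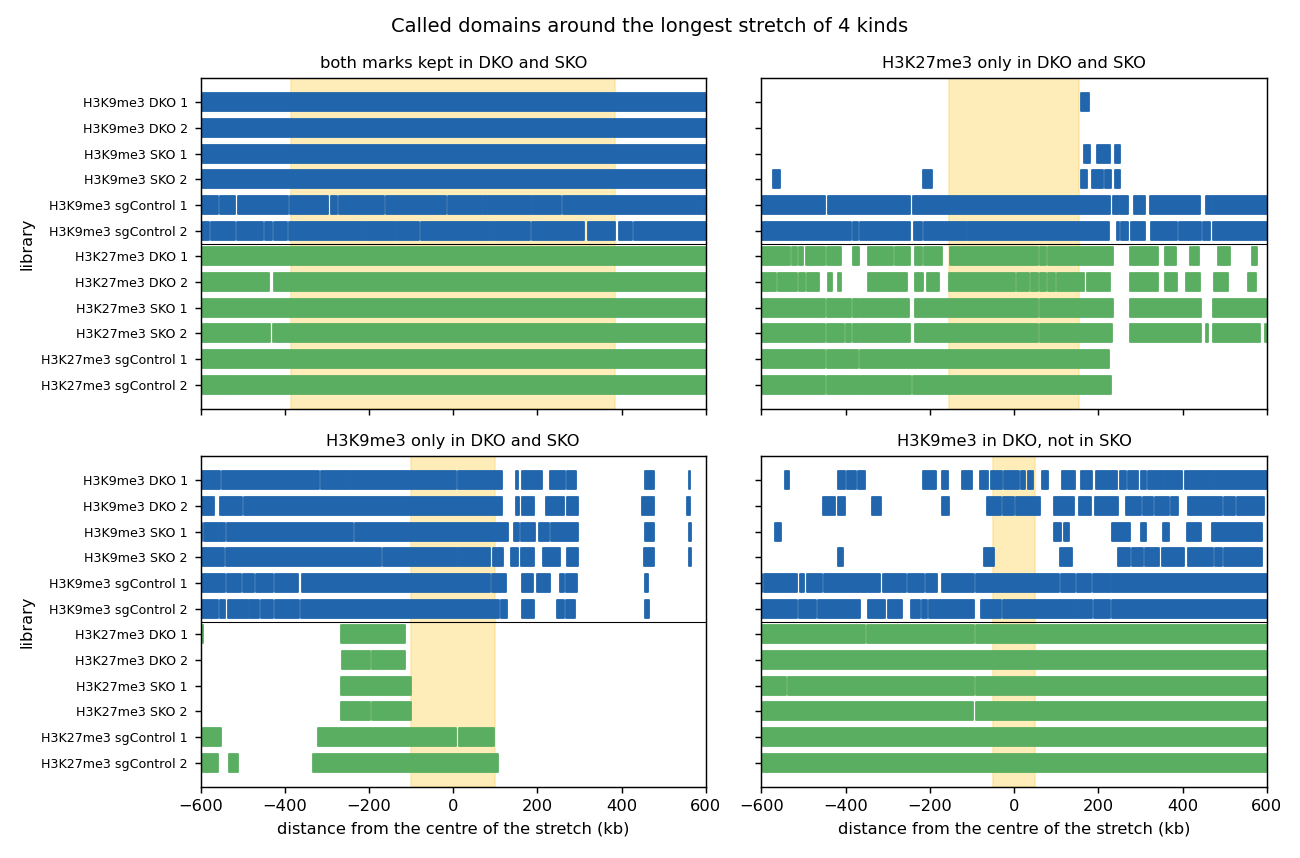
Called domains in each library (rows) around the longest block of 4 outcomes (shaded), against distance from its centre in kb. H3K9me3 rows are blue and H3K27me3 rows green, each with DKO above SKO above sgControl. The block kept by both marks is filled in all 8 knockout rows, with short gaps in the H3K9me3 rows of sgControl, the H3K27me3-only block has no H3K9me3 in DKO or SKO, and the last block has H3K9me3 in DKO and sgControl and not in SKO.

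A gene body lay in 36.8% of dual bins, close to the 36.8% of bins with H3K27me3 alone and 38.1% of bins with H3K9me3 alone, against 46.4% of all bins. Of 19126 protein-coding genes, 1405 (7.35%) had at least 50% of their body in dual bins. A gene body was called kept when at least 50% of it lay in domains in both libraries and lost when at most 25% did. Both marks were kept on 914 of the 1405 in DKO and 754 in SKO, H3K27me3 only on 126 in DKO and 229 in SKO, H3K9me3 only on 35 in DKO and 54 in SKO, and neither on 26 in DKO and 19 in SKO. Several sensory, hair and neural gene families had shares above that of all genes, as a description with no test. Olfactory receptors, which detect odours, had 152 of 389 genes in dual bins, keratin associated proteins of hair 43 of 94 (but keratins 2 of 55), clustered protocadherins of neuronal identity 23 of 53, neuronal adhesion and guidance genes 15 of 39, and defensins, which are antimicrobial peptides, 17 of 45. Zinc finger genes had 94 of 543, with 231 more in bins with H3K9me3 alone. None of 39 HOX genes, 13 myeloid genes, 20 genes of H3K9 methylation, 28 Polycomb genes, 42 interferon stimulated genes or 18 housekeeping genes was among the 1405. The same held for 4 T cell, 3 B cell, 3 erythroid and 3 epithelial genes, so this was not particular to the myeloid list. With 7.35% of all genes in dual bins, lists this short can hold none without differing from all genes. Most of the families named were not particular to dual bins. Bins with H3K27me3 alone held 829 of all 19126 genes. Among these were 48 olfactory receptors, 13 keratin associated proteins, 11 neuronal adhesion and guidance genes and 3 defensins, but 0 clustered protocadherins. Near-identical copies and overlapping genes in these families, such as the protocadherins, do not give independent values.

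The 15 neuronal adhesion and guidance genes had a median H3K9me3 body coverage of 46.7% in DKO and 6.02% in SKO, against 90.8% in DKO and 81.9% in SKO over all 1405 genes. Of these 15, 4 in DKO and 8 in SKO kept H3K27me3 only. The 23 clustered protocadherins, the other neural family named above, lay near all 1405 genes, with medians of 93.2% in DKO and 81.5% in SKO. Over all 1405 genes, 65.1% in DKO and 53.7% in SKO kept both marks. Of the 43 keratin associated proteins, 28 in DKO and 9 in SKO kept both, which in DKO is close to the share of all 1405. Of the 94 zinc finger genes, 65 in DKO and 40 in SKO kept both, and 11 in DKO and 24 in SKO kept H3K9me3 only. Of the 17 defensins, 16 in DKO and 15 in SKO kept both.

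Among single genes that kept H3K27me3 only were LRP1B, an endocytic receptor, ROBO2 and ROBO1, receptors for the axon guidance ligand Slit, CSMD3 and HDAC9, a histone deacetylase. ROBO2 had 14.5% and 13.8% of its body in H3K9me3 domains in DKO and 0% in both SKO libraries, against 70.2% and 67.8% in sgControl. Its H3K27me3 coverage was 97.4% and 97.3% in DKO and 97.3% and 96.6% in SKO, against 97.9% and 97.8% in sgControl. ROBO1 had 22.2% and 15.6% H3K9me3 coverage in DKO and 5.26% and 6.49% in SKO, against 84.8% and 85.2% in sgControl. In both genes the DKO libraries lay above the SKO libraries, and both lay far below sgControl.

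Among those that kept H3K9me3 only were NEK10, a NIMA-related kinase, ZCWPW2, SLC22A3, an organic cation transporter, KRABD5, ZNF324B and GLYAT, a glycine N-acyltransferase. NEK10 had 71.5% and 90.6% H3K9me3 coverage in DKO and 79.7% and 88.5% in SKO, against 83.3% and 84.3% in sgControl. Its H3K27me3 coverage was 24.9% and 20.7% in DKO and 14.0% and 18.5% in SKO, against 62.0% and 63.9% in sgControl. SLC22A3 had 0% H3K27me3 coverage in all 4 knockout libraries, against 72.2% and 64.5% in sgControl. Genes that kept neither mark were ADAMTS2, a procollagen protease, BET1, a vesicle transport SNARE, and PDPN, a membrane glycoprotein. PDPN had 0% H3K9me3 coverage in both DKO libraries and 22.1% and 0% in SKO, against 100% in sgControl, with 5.39% and 3.05% H3K27me3 in DKO and 0% in SKO, against 100% in sgControl. Genes that kept both were DAB1, an adaptor of reelin signalling, AGBL4, KAZN, GPC6, a glypican, and PTPRT, a receptor tyrosine phosphatase.

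Between the knockouts, H3K9me3 body coverage was higher in DKO for 102 of the 1405 genes, against 1.43% of all genes, and lower for 36, against 1.38%. Such a gene had DKO and SKO libraries at least 25 points apart at their closest. DCC, the netrin-1 receptor, had 60.3% and 51.2% H3K9me3 coverage in DKO and 7.09% and 17.9% in SKO, against 83.7% in both sgControl libraries. CSMD1, MACROD2 and GPC5 followed the same order, and H3K27me3 covered at least 94.7% of these 4 genes in each library. H3K27me3 was higher in DKO for 34 genes, against 0.716% of all genes, and lower for 21, against 0.382%. The longest of these genes were lower in DKO, and among them COBL, an actin nucleator, VOPP1 and PALS2 lie on chromosome 7. VOPP1 had 15.1% and 22.1% H3K27me3 coverage in DKO and 77.1% and 80.3% in SKO, against 95.2% and 100% in sgControl. Shorter genes higher in DKO included ZNF534 and ZNF613 on chromosome 19. H3K27me3 covered 100% of ZNF534 in both DKO libraries and 100% and 74.9% of ZNF613. Both genes had 0% in SKO and 100% in sgControl.

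**Figure D5:**
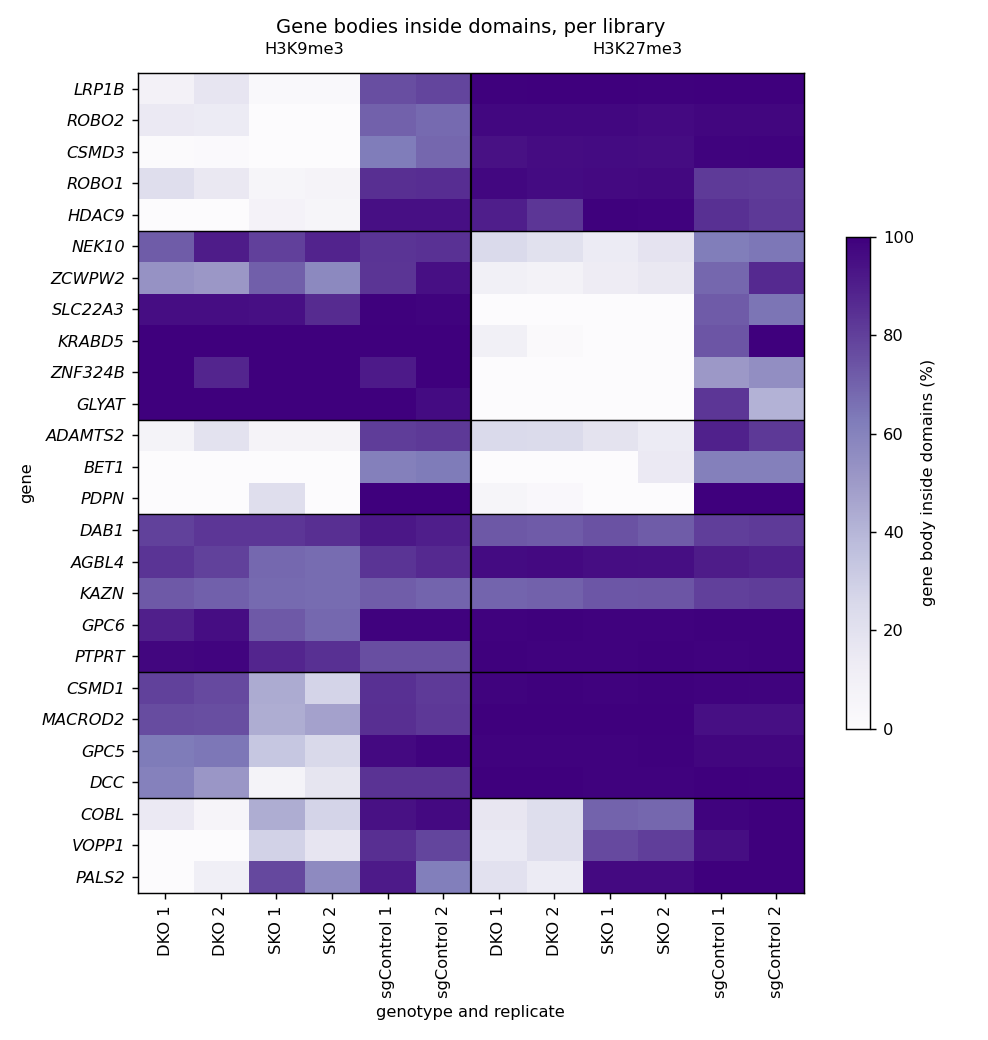
Percentage of each gene body inside domains (colour, 0 to 100) for the named genes in each H3K9me3 (left) and H3K27me3 (right) library. Rows are grouped from the top into genes that kept H3K27me3 only, H3K9me3 only, neither mark and both marks, then genes with more H3K9me3 in DKO and with less H3K27me3 in DKO.

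SETDB1 peaks, which did not enter the choice of bins, were fewer per Mb in dual bins than in bins with H3K9me3 alone. The 2 WT libraries had 6.51 and 6.99 peaks per Mb in dual bins, against 7.96 and 8.28 over all bins, 27.3 and 28.1 in bins with H3K9me3 alone and 1.34 and 1.53 in bins with H3K27me3 alone. Within dual bins the density differed by outcome. Bins that kept H3K9me3 only had 52.2 and 52.4 peaks per Mb by the DKO outcome and 60.8 and 61.9 by the SKO outcome. Bins that kept both had 7.85 and 8.49 by DKO and 8.75 and 9.39 by SKO, and bins that kept H3K27me3 only had 0.575 and 0.702 by DKO and 0.493 and 0.661 by SKO. Bins that lost both marks had 4.92 and 6.56 by DKO and 4.73 and 4.40 by SKO, more than those with H3K27me3 only. The 1038 dual bins with a peak present in both WT libraries had H3K9me3 in 95.5% ± 0.817 in DKO and 95.9% ± 0.0681 in SKO, against 65.5% ± 1.46 in DKO and 55.9% ± 0.459 in SKO of the 50057 without (SD, n = 2). H3K27me3 was marked in 71.2% ± 1.63 of those with a peak in DKO and 66.5% ± 1.09 in SKO, against 94.6% ± 0.338 in DKO and 95.3% ± 0.127 in SKO without. The H3K9me3 difference was not particular to dual bins. Among bins with H3K9me3 alone, those with such a peak had H3K9me3 in a mean of 94.9% in DKO and 98.0% in SKO. Those without had it in 56.7% in DKO and 64.7% in SKO. The strongest SETDB1 peak in dual bins by the authors' −log10 p lay over ZNF596, a zinc finger gene at chr8:238821-253182 in the first library and chr8:236702-249943 in the second.

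The sgControl lists already differed between the outcomes. The median H3K9me3 read density, relative to the mean of the library's domains, was 1.04 and 1.03 in dual bins that kept both marks in DKO and 0.882 and 0.889 in those with H3K27me3 only, and by the SKO outcome 1.05 and 1.04 against 0.892 and 0.898. H3K9me3 domains of sgControl were also wider in bins that kept both, at 135 and 125 kb by DKO and 143 and 133 kb by SKO, than in bins with H3K27me3 only, at 55.2 kb by DKO and 60 kb by SKO in both libraries. The part of density and width in the outcomes was not tested.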

How the data were processed

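Chromatin was fixed with formaldehyde, sonicated and mixed with Drosophila S2 chromatin as a spike-in, and libraries were made with Nextera XT, per the labels' protocols. The submitters' processing notes name hg38, dm6, SICER, deepTools 3.5.6, FastQC 0.12.1 and Trim Galore 0.6.10. For the aligner, read filters and SETDB1 peak caller, no name was given in the sources used here. The deposited H3K9me3 and H3K27me3 files are epic2 domain lists, made per library, with a read count and a score per domain, neither scaled for depth or spike-in per the file headers. The counts were used for read density only, and the score served only as a rank inside each list. The deposited SETDB1 lists hold narrow peaks per library with the authors' −log10 p, score and fold ratio, and no peak had a −log10 p below 5. The 4 input samples were not analysed here.

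Domains were intersected with 10 kb bins in Python 3.11.15 (numpy 2.4.6, pandas 2.3.3, scipy 1.17.1, matplotlib 3.10.9). A bin was marked at 50% coverage, and bins marked in 1 library of a mark only were left out of the sets with 1 or no mark. DKO and SKO were compared with limma 3.58.1 (R 4.3.3) on the bin percentages of all 6 libraries of a mark, with Benjamini-Hochberg adjustment over all bins not 0% or 100% in every library. The fit was tested on simulated data. Exact permutation tests of 2 against 2 libraries cannot go below p = 0.33. Contrasts with sgControl carry no test, since the rule used those libraries. Gene positions and promoters came from RefSeq GRCh38.p14, and 15101 of 19126 genes had a promoter entry.

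Named genes are the longest of each outcome with a body of at least 10 kb and 50% of it in dual bins (6 per outcome, fewer where fewer exist, and 4 per mark for DKO against SKO), the genes in the 3 longest blocks of each kind and the 4 longest of each gene list. Some genes that meet this rule are not reported here. The members, lists and rules were chosen with earlier results of these data known.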

Additional observations from a re-analysis of the deposited data

Results flagged for a closer look

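The gap in H3K9me3 between dual bins and bins with H3K9me3 alone stood out because it lay above 0 in both DKO libraries and below 0 in both SKO libraries. With the upper 50% of domains by score, the second DKO library lay at -0.284 points. As deposited, DKO and SKO differed by 16.8 points, and the smallest p that the exact permutation test of 2 against 2 libraries can give is 0.33. This contrast was not planned beforehand. The planned exact sign permutation over the 4 knockout libraries gave a mean gap of -3.26 points and p = 0.5. This mean pools DKO and SKO libraries, whose gaps differ in sign.

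The limma fit of DKO against SKO called 2552 dual bins for H3K9me3 and 804 for H3K27me3 at an adjusted p under 0.05. The sgControl libraries, which chose the members, entered its spread and filter. With the SKO and DKO libraries only, the fit called 2113 for H3K9me3 and 518 for H3K27me3.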

How the results depend on the processing

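Most of the values are lengths or counts, whose sign could not change. The mean gaps between dual bins and bins with 1 mark kept their sign under the alternatives tried. The gap of the second DKO library for H3K9me3 did not, at -0.284 points with the upper 50% of domains by score. For H3K27me3 the order of DKO and SKO changed: without chromosome 7 it was lost from 20.29 Mb of dual bins in DKO and 20.54 Mb in SKO, against 24.68 Mb in DKO and 22.02 Mb in SKO with it, and was marked in 94.8% in DKO and 94.7% in SKO, against 94.1% in DKO and 94.8% in SKO with it. The H3K9me3 gap between dual and H3K9me3-alone bins in DKO averaged 0.92 points with the upper 50% of domains by score, against 5.14. Taking domains by falling score to equal covered length, the dual bins themselves came to 380.85 Mb, against 510.95 Mb as deposited. Of these, H3K9me3 was lost from 80.11 Mb in DKO and 106.92 Mb in SKO, against 133.06 and 182.39 Mb as deposited. Dual bins differing in H3K9me3 between DKO and SKO summed to 24.06 Mb against 37 Mb. The mean H3K27me3 gap between dual and H3K27me3-alone bins was then 18.7 points, against 11.5 as deposited. The limma count for H3K9me3 was 1655 with the replicate number as a block and 2113 with the SKO and DKO libraries only, against 2552. The difference between the first and second library correlated at 0.0105 at most between genotypes. This cannot show if same-numbered libraries were prepared together. For H3K27me3 the count was 516 without chromosome 7 and 518 with the SKO and DKO libraries only, against 804. SETDB1 peaks present in both libraries gave 2.91 peaks per Mb of dual bins. Leaving out each library in turn, bins differing between DKO and SKO summed to 37 to 68.5 Mb for H3K9me3 and 7.05 to 11.95 Mb for H3K27me3, and limma counts were 2283 to 6495 and 693 to 2151. The cause of these differences was not tested. In the lengths of bins marked in 1 knockout only, a group left with 1 library is decided by a single call. This does not apply to the limma fit, which uses bin percentages. The domain lists cannot show total amounts of a mark, replicate cultures are not documented, and 2 libraries a group limit every test.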
